A study of Homo sapiens with 4 samples.

Results

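The genes of integrins and other cell adhesion molecules were followed in KMS11, an established myeloma line with the t(4;14) translocation. Myeloma is a cancer of plasma cells. The set held 40 genes, taken by symbol from the deposited table and joined by Ensembl identifier to the counts, out of 62069 genes listed. It held 17 integrin alpha chains, 7 integrin beta chains, 13 adhesion molecules of the immunoglobulin type, the selectin ligand gene SELPLG with the hyaluronan receptor gene CD44, and the cadherin gene CDH2. Both groups were KMS11 cells infected with lentivirus (polybrene, 10 µg/mL) and collected after 96 h of shRNA, the last 72 h of it in fresh medium. By genotype label 2 libraries were NSD2 knockdown and 2 were Control. The labels give neither the sequence and promoter of each shRNA nor say if cultures were separate, so every p-value rests on the spread between these libraries alone, which may be technical. NSD2 is the histone methyltransferase gene that t(4;14) places under an immunoglobulin enhancer.

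Integrins are surface receptors built from an alpha and a beta chain, and the pairing decides whether a receptor binds matrix proteins or molecules on other cells. The alpha 4 chain with the beta 1 chain binds VCAM-1 and fibronectin and is known as the main anchor of myeloma cells to bone marrow stroma. The alpha L, alpha M and alpha X chains pair with the beta 2 chain on leukocytes and bind ICAM molecules, while molecules of the immunoglobulin type, cadherins and the selectin ligand PSGL-1 bind partners on neighbouring cells or on endothelium.

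The libraries held 48334736 and 55059566 counted fragments in the NSD2 knockdown group and 50417758 and 46728940 in the control group. NSD2 itself stood at 919 and 1156 CPM in the knockdown libraries, against 1121 and 1471 CPM in the controls. CPM are fragment counts scaled for library size. The groups overlapped and NSD2 did not pass the test (log2 fold change -0.32 by edgeR, with a 95% interval of -0.66 to 0.02 and an adjusted p of 0.244), so the knockdown group is called by its label. Of 8 plasma cell markers, 2 were lower and 0 higher, with summed levels of 7921 to 8652 CPM in the knockdown libraries and 8624 to 8641 CPM in the controls. Most of that sum was JCHAIN (5031 and 5490 CPM in the knockdown libraries, 5575 and 5428 CPM in the controls). The lower markers were SLAMF7 and CD38. SLAMF7 was at 109.7 and 129 CPM in the knockdown libraries and 237 and 272 CPM in the controls (log2 fold change -1.09, edgeR adjusted p = 0.000952). CD38 had 14 and 2 fragments in the knockdown libraries and 78 and 33 in the controls (-2.82, 95% interval -4.22 to -1.42, edgeR adjusted p = 0.0284). By its knockdown libraries alone CD38 would not have passed the filter on low counts. SDC1, the defining heparan sulphate proteoglycan, was at 678 and 667 CPM in the knockdown libraries and at 653 and 633 CPM in the controls. Of 6 epithelial markers 4 were tested, and 3 were lower and 0 higher (summed 36.0 to 36.9 CPM in the knockdown libraries, 57.4 to 68.9 CPM in the controls). Lower were KRT18 and the cell adhesion genes EPCAM and CDH1. Most of the sum was EPCAM (31.8 and 29.3 CPM in the knockdown libraries, 59.2 and 45.6 CPM in the controls). Beside these counts and those of plasma cell markers, 4.19% of all genes tested were lower and 1.74% higher. Summed markers of endothelial cells were at 2.59 to 2.65 CPM in the knockdown libraries and 3.88 to 4.31 CPM in the controls. CDH5 was at 0 in every library, and the 2 tested endothelial markers gave no call. Those of T and NK cells (knockdown 4.83 to 5.03 against control 4.92 to 5.93 CPM, CD3D at 0), of monocytes (knockdown 0.165 to 0.313 against control 0.119 to 0.127 CPM), of fibroblasts (knockdown 0.931 to 0.977 against control 0.969 to 1.27 CPM, LUM at 0) and of platelets (knockdown 2.45 to 2.46 against control 2.37 to 3.50 CPM, with PF4, PPBP, GP9 and GP1BB at 0) gave no call (2, 0, 1 and 2 members tested). The part of these markers in the adhesion results was not tested.

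Of the 40 adhesion genes, 31 passed the filter on low counts and were tested. In the NSD2 knockdown libraries 7 of them were lower and 3 higher at an adjusted p below 0.05 by the quasi-likelihood test of edgeR, and 21 did not pass. The 10 calls were 32.3% of the tested members, where 5.93% of all 17172 genes tested were called. Lower calls were 22.6% of members, against 4.19% of all genes, and higher calls were 9.68% against 1.74%. The genes that fell were NCAM1, ITGAX, ALCAM, CDH2, JAM3, SELPLG and ITGAV, and those that rose were ITGB2, ITGA8 and L1CAM. The median log2 fold change of the tested members was -0.26, against -0.00 for all genes tested, and 23 members lay below 0 and 8 above. The groups did not overlap in 23 of the 31 members, or 74.2%, against 53.2% of all genes. The set was chosen with earlier results of these data known, so these shares and this median cannot test it as a group. RNA of whole cultures cannot tell fewer cells with a transcript from less of it per cell. The count of lower members was 11 without control library 1, and 5 to 7 without each of the other libraries.

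**Figure D1:**
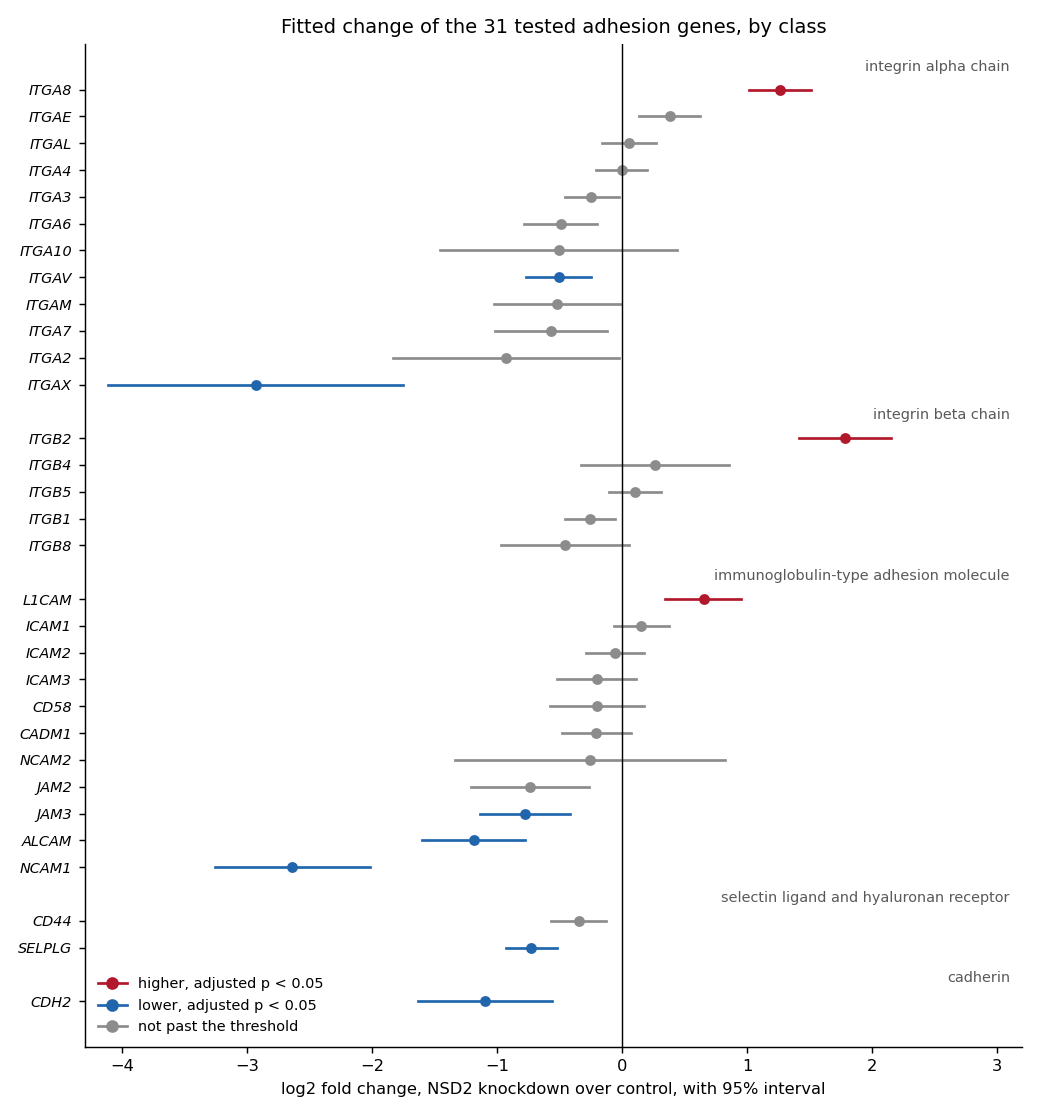
Log2 fold change (x axis, NSD2 knockdown over control) with its 95% interval for each of the 31 tested adhesion genes, grouped by class. ITGB2, ITGA8 and L1CAM lie to the right of 0 as called rises, and the widest intervals belong to genes with few fragments such as ITGAX (-4.11 to -1.75).

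**Figure D2:**
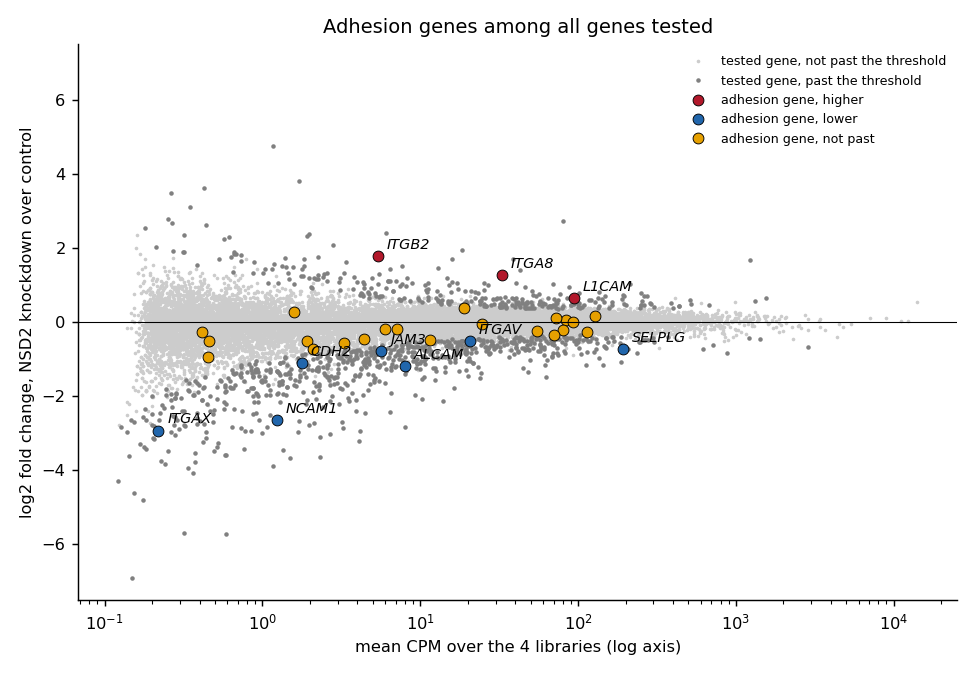
Log2 fold change (y axis) against the mean CPM over the 4 libraries (x axis, log scale) for all 17172 genes tested, with the adhesion genes drawn large. The called members span levels from ITGAX, below 1 CPM, to SELPLG at 145 ± 1.26 CPM in the knockdown libraries and 241 ± 7.56 CPM in the controls (SD, n = 2 each).

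To set genes that rose beside genes that fell, the 250 bases before the transcription start are shown for the called members with the smallest adjusted p in each direction among those in the RefSeq promoter table (GRCh38.p14). Each is given 5′ to 3′ on the strand of its gene, with the GC box GGGCGG or its complement CCGCCC in capitals. ITGA8 (chr10:15719923-15720172, minus strand) and L1CAM (chrX:153876015-153876264, minus strand) rose. ALCAM (chr3:105366659-105366908, plus strand) and CDH2 (chr18:28177131-28177380, minus strand) fell.
ITGA8: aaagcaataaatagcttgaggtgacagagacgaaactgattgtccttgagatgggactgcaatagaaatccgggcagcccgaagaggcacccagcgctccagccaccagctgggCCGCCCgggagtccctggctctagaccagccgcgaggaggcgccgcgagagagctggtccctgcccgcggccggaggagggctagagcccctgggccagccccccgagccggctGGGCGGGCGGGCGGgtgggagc
L1CAM: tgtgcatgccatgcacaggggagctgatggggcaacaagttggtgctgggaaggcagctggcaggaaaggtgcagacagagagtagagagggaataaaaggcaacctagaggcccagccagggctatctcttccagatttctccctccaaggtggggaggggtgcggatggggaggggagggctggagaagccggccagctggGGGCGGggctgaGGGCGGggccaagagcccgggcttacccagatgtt
ALCAM: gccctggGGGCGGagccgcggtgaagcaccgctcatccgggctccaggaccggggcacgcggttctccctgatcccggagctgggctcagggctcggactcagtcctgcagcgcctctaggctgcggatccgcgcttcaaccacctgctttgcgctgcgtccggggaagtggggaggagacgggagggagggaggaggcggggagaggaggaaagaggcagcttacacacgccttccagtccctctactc
CDH2: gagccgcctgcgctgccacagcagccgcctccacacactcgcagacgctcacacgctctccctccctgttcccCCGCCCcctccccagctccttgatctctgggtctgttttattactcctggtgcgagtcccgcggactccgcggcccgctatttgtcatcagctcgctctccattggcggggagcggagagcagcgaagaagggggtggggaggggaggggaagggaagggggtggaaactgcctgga
The GC box was found 4 times at ITGA8, where 3 matches overlap in part, 2 times at L1CAM, and once each at ALCAM and CDH2. Over both strands, 42.6% of all 35116 entries held it, as did 17 of the 34 entries of the 25 members matched. Among those entries it stood in 3 of 3 for members that rose, in 2 of 5 for members that fell and in 11 of 20 for tested members that did not pass. Entries are not independent: the 3 of members that rose belong to 2 genes, with a pair of overlapping L1CAM windows, and the 5 of members that fell belong to 3 genes. ITGB2, ITGAX, NCAM1, SELPLG and JAM3 were not matched. TATAAA, searched on both strands, was in 0 of 3, 1 of 5 and 3 of 20 of these entries and in 10.7% of all entries. The GC content of the windows shown was 68.0% at ITGA8, 62.8% at L1CAM, 68.8% at ALCAM and 66.0% at CDH2, against a median of 58.0% over all entries, and CG dinucleotides numbered 19, 5, 20 and 17, against a median of 11. These windows are those of RefSeq starts, and which start KMS11 uses was not measured.

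Among the integrin alpha chains, 12 of 17 were tested, of which 1 rose and 2 fell. Calls were 25% of these tested chains, against 5.93% of all genes tested. ITGA8 (chromosome 10, 15555948 to 15762124, GRCh37) encodes the alpha 8 chain, a partner of beta 1 that binds nephronectin and is known from mesenchymal cells and the developing kidney. It stood at 45.1 and 47.8 CPM in the NSD2 knockdown libraries and at 18.0 and 20.8 CPM in the controls. Both knockdown libraries lay above both controls, by 2.40-fold (log2 fold change 1.26 ± 0.11 SE with a 95% interval of 1.01 to 1.51, edgeR adjusted p = 0.000483). This was the smallest adjusted p of the 31 tested members.

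ITGAV (chromosome 2, 187454792 to 187545628), the alpha V chain of receptors for vitronectin and fibronectin, was lower. It had 16.0 and 17.8 CPM in the knockdown libraries and 22.9 and 25.4 CPM in the controls, with no overlap (log2 fold change -0.51 ± 0.117 SE with a 95% interval of -0.77 to -0.25, adjusted p = 0.0319 by edgeR). Without knockdown library 1 its log2 fold change was -0.43 and the call was lost (adjusted p = 0.128). ITGAX (chromosome 16, 31366455 to 31394318), the alpha X chain of myeloid cells, had 3 and 2 fragments in the knockdown libraries and 21 and 17 in the controls. Its log2 fold change was -2.93 (SE 0.527, 95% interval -4.11 to -1.75, edgeR adjusted p = 0.0119), and the ratio of its summed fragments was 0.124, with an exact 95% interval for counting error of 0.038 to 0.315. It passed the filter through the control libraries alone, so at these knockdown counts it had to differ to be tested. Without knockdown library 2 the call was lost (log2 fold change -2.60, adjusted p = 0.0572).

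The other alpha chains did not pass. ITGA4, the alpha chain of the VCAM-1 and fibronectin receptor, had 95.9 and 90.8 CPM in the knockdown libraries and 91.4 and 95.7 CPM in the controls. The groups overlapped, and the 95% interval of its log2 fold change ran from -0.21 to 0.20 (edgeR adjusted p = 0.992). ITGAL, the alpha chain of the ICAM receptor LFA-1, had 88.2 and 83.9 CPM in the knockdown libraries and 78.5 and 87.3 CPM in the controls (log2 fold change 0.05, 95% interval -0.16 to 0.27, adjusted p = 0.787 by edgeR). ITGAE, the chain that binds E-cadherin on epithelium, was at 21.9 and 21.2 CPM in the knockdown libraries and at 16.9 and 16.2 CPM in the controls, without overlap, at an adjusted p of 0.0767 by edgeR (log2 fold change 0.38). With terms for GC content and length it passed (0.46, adjusted p = 0.036), which made 4 higher members. Its exons overlap those of GSG2. The laminin receptor chain ITGA6 had 9.70 and 9.32 CPM in the knockdown libraries and 12.4 and 14.4 CPM in the controls, also without overlap (log2 fold change -0.49, edgeR adjusted p = 0.0610). ITGA6 passed without control library 1 (-0.59, adjusted p = 0.00863). The laminin receptor chains ITGA3 and ITGA7 and the beta 2 partner ITGAM had log2 fold changes of -0.25, -0.57 and -0.52, at edgeR adjusted p of 0.166, 0.133 and 0.216. Exons of ITGA7 overlap those of BLOC1S1. Without control library 1, ITGA7 passed (-0.73, adjusted p = 0.0363). ITGA2 and ITGA10, collagen receptor chains, had 9 to 23 and 12 to 26 fragments in the knockdown libraries, against 27 to 31 and 24 to 28 in the controls, too few to bound a change closely (95% intervals -1.83 to -0.03 and -1.46 to 0.44).

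Of the 5 tested integrin beta chains, 1 rose and 0 fell by edgeR, or 20.0% called, against 5.93% of all genes tested. DESeq2 and limma-voom also gave 0 falls, and 1 chain was lower at an unadjusted p below 0.05. ITGB2 (chromosome 21, 46305868 to 46351904), the shared beta chain of leukocyte integrins, had 8.50 and 8.11 CPM in the NSD2 knockdown libraries and 2.27 and 2.57 CPM in the controls. Both knockdown libraries were above both controls by a wide margin, at 3.43-fold (log2 fold change 1.78 ± 0.166 SE with a 95% interval of 1.41 to 2.15, edgeR adjusted p = 0.00063). Exons of ITGB2 overlap those of ITGB2-AS1 (46340966 to 46349593), and the counting took no account of strand. Fragments from the shared stretches cannot be told apart, while ITGB2 also reaches beyond that span on both sides. ITGB2-AS1 was counted at 1.10 and 1.12 CPM in the knockdown libraries and at 0.297 and 0.403 CPM in the controls (log2 fold change 1.66, edgeR adjusted p = 0.0121). ITGB1, the beta 1 chain that pairs with most matrix-binding alpha chains, had 102 and 105 CPM in the knockdown libraries and 122 and 125 CPM in the controls. The groups did not overlap, but the difference of -0.26 on the log2 scale (95% interval -0.46 to -0.06) missed the threshold, with an edgeR adjusted p of 0.126. With a block for equal library numbers, a pairing that the labels do not state, ITGB1 passed (-0.26, edgeR adjusted p = 0.0331). It also passed with that block and GC and length terms (-0.25, edgeR adjusted p = 0.00431). ITGB5, an alpha V partner, was at 74.7 ± 2.87 CPM in the knockdown libraries and 69.9 ± 3.80 CPM in the controls (SD, n = 2 each; edgeR adjusted p = 0.596). ITGB8, another alpha V partner, overlapped between the groups at 3.02 and 4.39 CPM in the knockdown libraries and 4.31 and 5.90 CPM in the controls. ITGB4, the partner of alpha 6, overlapped too, at 2.03 and 1.46 CPM in the knockdown libraries and 1.68 and 1.21 CPM in the controls. Without control library 1 ITGB8 passed (log2 fold change -0.66, adjusted p = 0.0441).

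Levels of different genes were compared as CPM per kb of exonic length, which understates genes whose annotated exons are used only in part. Among the integrin chains of the set, which did not hold every chain of the family, ITGB1 was highest on this scale. It stood at 18.5 in the knockdown group and 22.1 in the control group. It was followed by ITGAL at 13.8 and 13.2 and by ITGA4 at 11.8 and 11.8. ITGA8 stood at 6.17 in the knockdown group and 2.58 in the control group, moving in order among the 40 genes to position 10, against 15 in the controls. ITGB2 stood at 1.22 in the knockdown group and 0.356 in the control group, so the beta 2 transcript remained below that of its partner ITGAL in all 4 libraries. Its other partners in the set were lower still in the knockdown group, ITGAM at 0.279 and ITGAX at 0.00757. In the controls the libraries of ITGAM (0.344 and 0.459) overlapped those of ITGB2 (0.335 and 0.378). Over all 40 genes SELPLG was highest (51.1 in the knockdown group and 84.7 in the control group), at the 94.8th and 97.4th percentile of all genes tested, and ICAM1 was next (36.2 and 32.6).

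**Figure D3:**
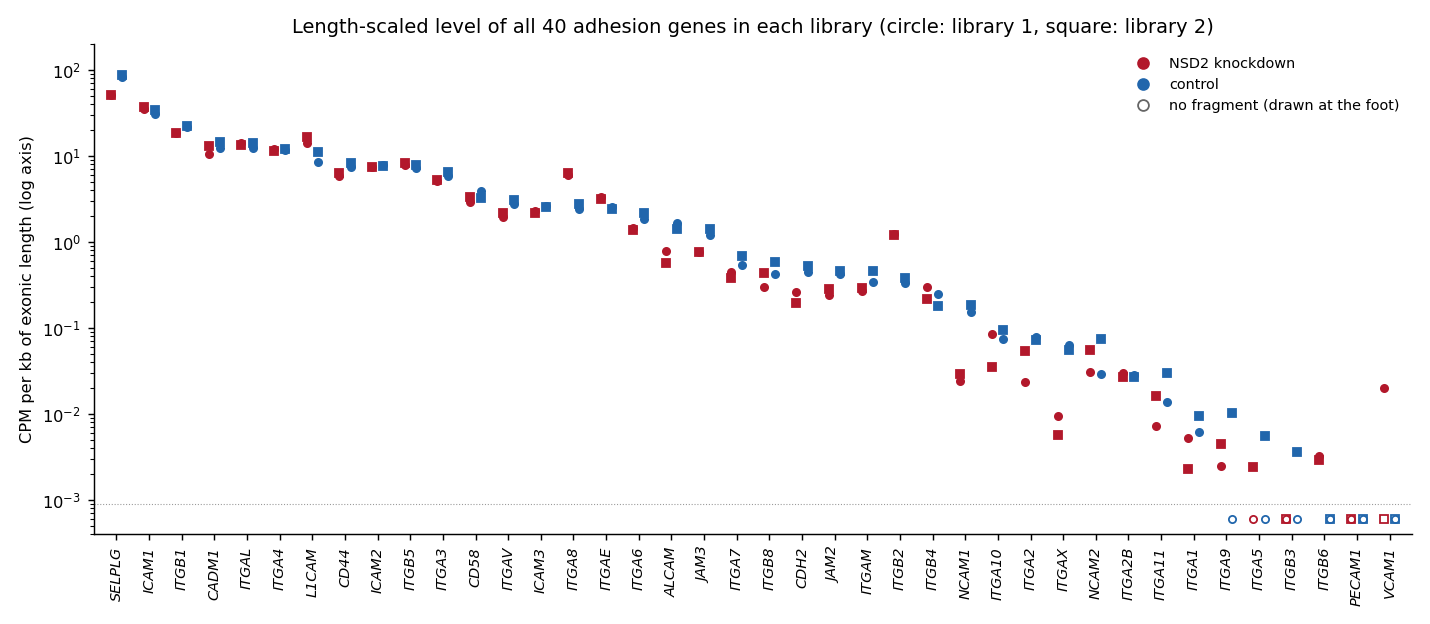
Level per kb of exonic length (y axis, CPM per kb, log scale) of all 40 adhesion genes in each library, ordered by the control mean. ITGB2 stands at 1.22 in the knockdown group against 0.356 in the control group, while ITGA4 lies on its controls (11.8 in each group).

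Among adhesion molecules of the immunoglobulin type, 11 of 13 were tested, of which 3 fell and 1 rose. Calls were 36.4% of these tested genes, against 5.93% of all genes tested. NCAM1 (chromosome 11, 112831997 to 113149158), the neural adhesion molecule CD56 that is found on many myelomas, had 0.310 and 0.369 CPM in the NSD2 knockdown libraries and 1.94 and 2.33 CPM in the controls. These are 15 and 20 fragments in the knockdown libraries and 98 and 110 in the controls, or 6.23-fold less (log2 fold change -2.64 ± 0.278 SE with a 95% interval of -3.26 to -2.02, edgeR adjusted p = 0.000978). ALCAM (chromosome 3, 105085753 to 105295744), the CD166 ligand of the T cell surface protein CD6, had 5.65 and 4.07 CPM in the knockdown libraries and 12 and 10.1 CPM in the controls. It fell 2.28-fold without overlap (log2 fold change -1.19 ± 0.183 SE with a 95% interval of -1.60 to -0.78, edgeR adjusted p = 0.0061). JAM3 (chromosome 11, 133938820 to 134021896), a junction molecule that binds JAM2, had 4.16 and 4.15 CPM in the knockdown libraries and 6.57 and 7.68 CPM in the controls. The knockdown libraries were nearly equal and both below the controls (1.71-fold lower, log2 fold change -0.78, 95% interval -1.14 to -0.42, edgeR adjusted p = 0.0225). Its exons overlap those of NCAPD3, for which the log2 fold change was -0.26 (adjusted p = 0.259). JAM2 had 1.45 and 1.70 CPM in the knockdown libraries and 2.53 and 2.74 CPM in the controls, a log2 fold change of -0.74 at an edgeR adjusted p of 0.0703, and its exons overlap those of ATP5J.

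L1CAM (chromosome X, 153126969 to 153174677), a neural adhesion molecule that also binds integrins, was the immunoglobulin-type gene that rose. It had 104 and 125 CPM in the knockdown libraries and 64.0 and 82.7 CPM in the controls. In each group library 2 was above library 1, and the groups did not overlap (1.57-fold, log2 fold change 0.65 ± 0.137 SE with a 95% interval of 0.34 to 0.95, edgeR adjusted p = 0.0235). Its exons overlap those of ARHGAP4, which did not pass (log2 fold change 0.11, edgeR adjusted p = 0.526), and those of ENSG00000196987, which also did not pass (0.86, adjusted p = 0.414).

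The ICAM genes encode the ligands of LFA-1. ICAM1 had 130.2 and 138 CPM in the knockdown libraries and 115 and 127 CPM in the controls (log2 fold change 0.15, 95% interval -0.07 to 0.37, edgeR adjusted p = 0.397). ICAM2 was at 24.0 ± 0.0572 CPM in the knockdown group and 25 ± 0.754 CPM in the control group, and ICAM3 at 6.60 ± 0.194 and 7.61 ± 0.205 CPM (SD, n = 2 each), and neither passed (edgeR adjusted p = 0.777 and 0.438). CD58, the ligand of the T cell surface protein CD2, had 5.13 and 5.95 CPM in the knockdown libraries and 6.98 and 5.79 CPM in the controls, which overlapped (log2 fold change -0.20, 95% interval -0.58 to 0.17, adjusted p = 0.519 by edgeR). CADM1, a molecule that binds its like on other cells, also overlapped, at 66.5 and 81.9 CPM in the knockdown libraries and 79.1 and 92.0 CPM in the controls. NCAM2, a neural relative of NCAM1, had 13 and 26 fragments in the knockdown libraries and 13 and 31 in the controls.

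SELPLG (chromosome 12, 109015686 to 109027735) encodes PSGL-1, the ligand by which leukocytes roll on P-selectin. It had 144 and 146 CPM in the NSD2 knockdown libraries and 235 and 246 CPM in the controls, with no overlap. It fell by 39.7% (log2 fold change -0.73 ± 0.0911 SE with a 95% interval of -0.93 to -0.52, edgeR adjusted p = 0.00231). CD44, which binds hyaluronan and can carry selectin ligand glycans, had 59.3 and 64.3 CPM in the knockdown libraries and 74.6 and 82.9 CPM in the controls. Its groups did not overlap, and its log2 fold change of -0.35 (95% interval -0.57 to -0.13) missed the threshold at an adjusted p of 0.0703, but passed without control library 1 (-0.42, adjusted p = 0.012 by edgeR). CDH2 (chromosome 18, 25530930 to 25757410), or N-cadherin, which joins cells through like molecules, had 1.30 and 0.958 CPM in the knockdown libraries and 2.24 and 2.59 CPM in the controls. It fell 2.14-fold (log2 fold change -1.10 ± 0.239 SE with a 95% interval of -1.63 to -0.56, edgeR adjusted p = 0.0269). Without knockdown library 2 the log2 fold change of CDH2 was -0.89 and the call was lost (adjusted p = 0.121).

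**Figure D4:**
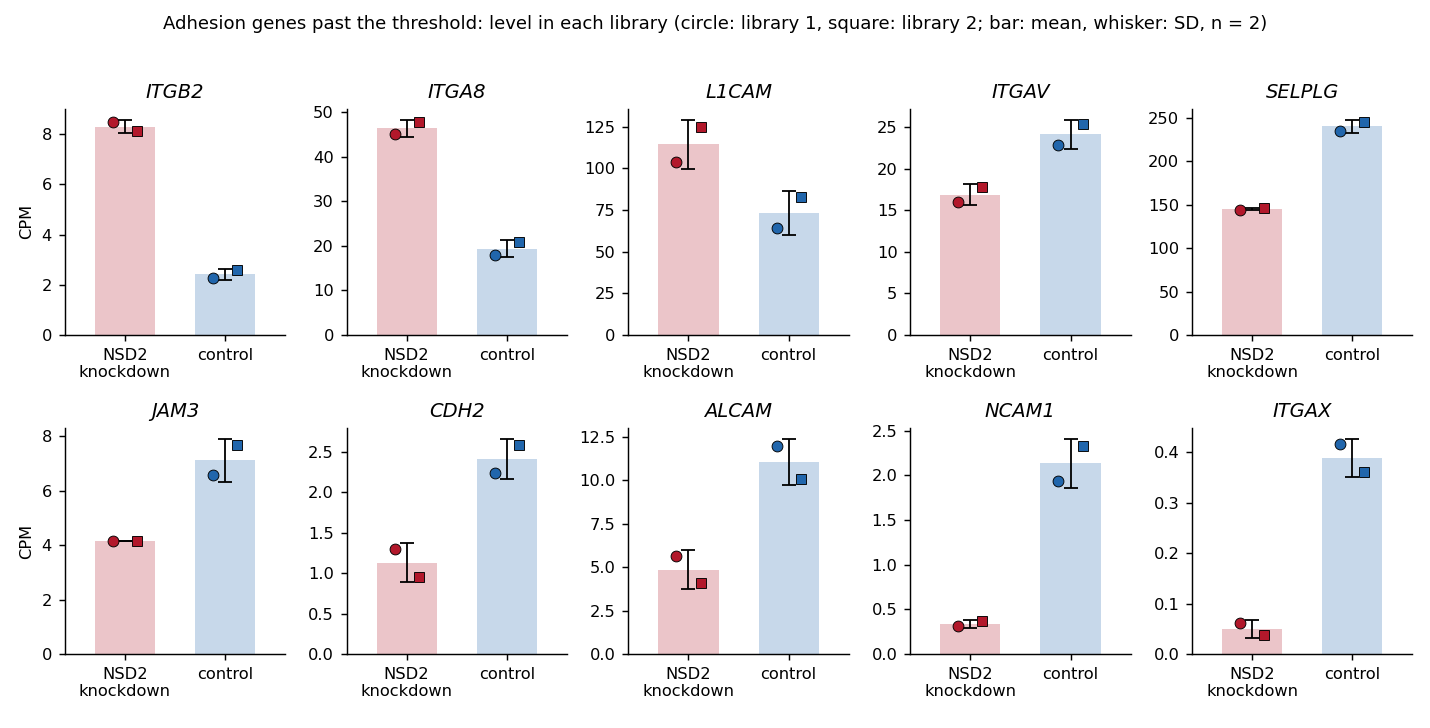
Level (y axis, CPM from 0) of each of the 10 called adhesion genes in the NSD2 knockdown and control libraries, with bars for the mean and whiskers for the SD (n = 2). In every panel both knockdown libraries lie on the same side of both controls, for example L1CAM (104 and 125 CPM against 64.0 and 82.7 CPM).

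The 9 untested members were at or near the limit of detection. A count of 3 fragments corresponds to 0.0553 to 0.0636 CPM in these libraries, for counting error only. VCAM1, the ligand of the alpha 4 integrin on stromal cells, had 3 fragments in knockdown library 1 and 0 in the other 3 libraries. The fibronectin receptor chain ITGA5 had 0 and 1 fragments in the knockdown libraries and 0 and 2 in the controls, and ITGB3, the beta 3 chain of platelets, had 0 and 0 in the knockdown libraries and 0 and 1 in the controls. ITGA1, ITGA2B, ITGA9, ITGA11 and ITGB6 had 0 to 8 fragments in every library. PECAM1 was listed at 0 in every library, but the deposited table places it only on a patch sequence of GRCh37 (HG183_PATCH), so the 0 cannot be read as its level.

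Genes that act with these receptors were counted in 4 lists. Of 33 tested genes for integrin activation and linkage to the cytoskeleton, 4 fell and 0 rose by edgeR (1 higher at an unadjusted p below 0.05, and 0 higher by DESeq2 or limma-voom), with a median log2 fold change of -0.10. Without knockdown library 2, 2 fell. The focal adhesion adaptor gene PXN had 5.40 and 4.70 CPM in the knockdown libraries and 9.73 and 10.9 CPM in the controls (log2 fold change -1.03, edgeR adjusted p = 0.00498). VCL, which encodes vinculin, had 19.5 and 20.4 CPM in the knockdown libraries and 28.0 and 27.5 CPM in the controls (-0.48, adjusted p = 0.0261 by edgeR), a call lost without knockdown library 1 (0.110) and without knockdown library 2 (0.0634). TNS1, which encodes tensin 1, had 7 and 1 fragments in the knockdown libraries and 30 and 57 in the controls (-3.48, edgeR adjusted p = 0.012). Like ITGAX it passed the filter on low counts through the control libraries alone, and the filter of 1 CPM removed it. Its log2 fold change was -5.42 without knockdown library 1 and -2.62 without knockdown library 2. TLN2, named after its values were seen, fell with -0.81 (edgeR adjusted p = 0.0497) and was past the threshold in 7 of 11 alternatives.

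Among 14 tested matrix ligands and hyaluronan enzymes, 1 fell and 0 rose by edgeR (1 higher at an unadjusted p below 0.05, 0 by DESeq2 or limma-voom). The count that fell was 2 without control library 1 or without either knockdown library. The call as reported was that of NPNT, which encodes nephronectin, the ligand of the alpha 8 integrin. NPNT had 0.207 and 0.516 CPM in the knockdown libraries and 1.66 and 2.67 CPM in the controls (log2 fold change -2.55, SE 0.395, edgeR adjusted p = 0.0061), the opposite direction to ITGA8. Without knockdown library 2 its log2 fold change was -3.38, and without knockdown library 1 it was -2.06. Among 17 tested genes of cadherin linkage, sheddases and receptor partners, 2 fell and 0 rose by edgeR, as by DESeq2 and limma-voom, with 0 higher at an unadjusted p below 0.05. Of these, the sheddase gene ADAM9 had 96.0 and 100.1 CPM in the knockdown libraries and 139 and 143 CPM in the controls (-0.52, adjusted p = 0.0101 by edgeR). Of 14 tested enzyme genes that build selectin ligand glycans, 0 fell and 0 rose by edgeR, with a median log2 fold change of 0.08. Without control library 2 the count that rose was 2, and without knockdown library 1 it was 1. At an unadjusted p below 0.05, 2 of them were higher and 0 lower, and 1 was higher by DESeq2 and 0 by limma-voom. These lists were called at 12.1%, 7.14%, 11.8% and 0%, against 5.93% of all genes tested. They too were chosen with earlier results of these data known.

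The authors' deposited table (M2 over LUC in its header) called 5 of the 33 members with an adjusted p there, against 1.85% of all genes with one. These were NCAM1, ITGB2, ALCAM, CDH2 and SELPLG, which are 5 of the 5 deposited calls and 5 of the 10 calls given here. For ITGA8 the authors' deposited table has a log2 fold change of 1.24 at an adjusted p of 0.0652, and for L1CAM 0.66 at 0.241. The authors' deposited table gives NCAM1 a base mean of 621 and CDH2 one of 1675, where the highest count of these genes in the 4 libraries was 110 and 122. A mean over the 4 libraries cannot reach such values. Which libraries entered that model is not given.

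**Figure D5:**
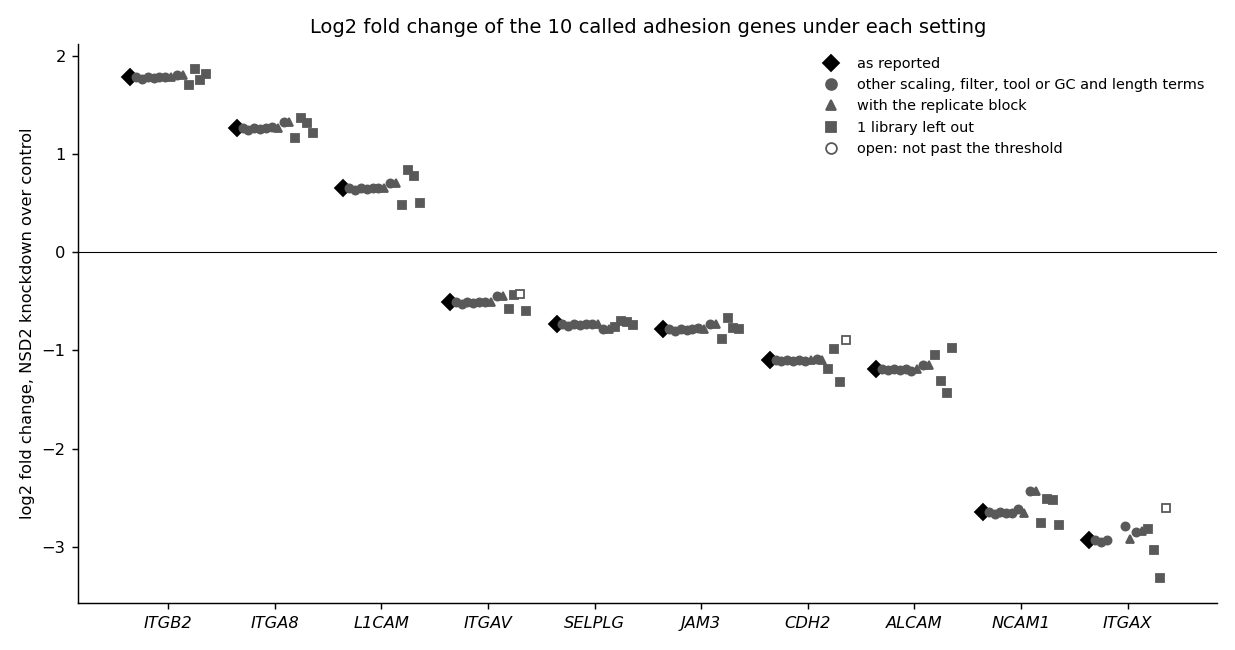
Log2 fold change (y axis) of the 10 called adhesion genes as reported and under each alternative setting, with open symbols where the adjusted p was not below 0.05. All points of a gene lie on the same side of 0, and the open symbols belong to ITGAV, CDH2 and ITGAX with 1 library left out.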

How the data were processed

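RNA was measured in 4 KMS11 libraries (TruSeq kit, 1 µg of total RNA), grouped by their genotype label. The deposited file of each library lists, for every Ensembl gene, the raw count of fragments. Per the submitters' processing notes, reads were trimmed with Trim Galore 0.3.7, aligned to GRCh37 with STAR 2.5.3, treated with Picard and counted by Subread 1.4.6 (featureCounts). The counting, per the file headers, ignored strand and used alignments named as free of duplicates. The authors' deposited DESeq2 table (version not given in the sources used here) holds log2 fold changes, p-values, a base mean, which is a signal averaged over normalized counts, and the exonic length. Its 4 count columns stayed out of the analysis, as did the 1 line without a gene in each count file.

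Genes with enough counts (filterByExpr) were tested with the quasi-likelihood test of edgeR 4.0.16 after TMM scaling, with Benjamini-Hochberg adjustment over all 17172 genes tested and no block. In simulated counts with independent libraries and a fixed spread, 46.0% of 1.5-fold changes and 82.8% of 2.0-fold changes were called. A gene that did not pass may therefore still have changed. The biological coefficient of variation was 9.81%. Limma 3.58.1 (voom) and DESeq2 1.42.0 served as alternatives, beside other scalings, filters, GC and length terms and leaving out each library. Intervals and floors cover counting error only where so named, since fragments without molecular identifiers are not independent molecules. Called members, a few genes known in myeloma and up to 3 genes per direction of each further list were named with values. The member set and all lists were chosen with earlier results of these data known. Symbols and coordinates (GRCh37) are those of the deposited table, and promoter sequences are from RefSeq (GRCh38.p14). Among several RefSeq starts, the farthest upstream that begins a GENCODE 29 transcript was printed. For 1 further gene of these lists the values are not reported here.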

Additional observations from a re-analysis of the deposited data

How the results depend on the processing

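With 2 libraries a group, depth limits the genes with few fragments, and fits that leave out 1 library assume that the lone library varies like the other group. Of the 10 called adhesion genes, 7 stayed past the threshold in all 13 alternatives (ITGA8, ITGB2, NCAM1, SELPLG, ALCAM, L1CAM and JAM3). ITGAV, CDH2 and ITGAX each lost the call without 1 knockdown library. ITGAX was removed by the filter of 1 CPM and had no adjusted p in DESeq2. Leaving out each library gave 3 to 3 higher and 5 to 11 lower members. Over all genes it gave 173 to 682 higher calls (lowest without knockdown library 2, highest without control library 1) and 649 to 1342 lower calls, again with those libraries. In the lists it gave 2 to 6 lower linkage genes, 1 to 2 lower matrix ligands and 0 to 2 higher selectin ligand enzymes. With no filter, 658 genes were higher and 1490 lower, with 7 linkage genes and 3 matrix ligands lower and 3 selectin ligand enzymes higher. The filter of 1 CPM left 2 lower linkage genes, and DESeq2 called 1 selectin ligand enzyme higher.

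The labels do not say that equal library numbers mark a pair, and the deviations of equally numbered libraries correlated across genes at 0.333. With the replicate block, 1327 genes were higher and 1992 lower, and 14 members were lower. In the lists 1 linkage gene was higher and 7 lower, 3 matrix ligands were lower and 2 selectin ligand enzymes were higher. With the replicate block and GC and length terms, 2299 genes were higher and 2391 lower, and 5 members were higher and 12 lower. In the lists 4 linkage genes were higher and 10 lower, 2 matrix ligands higher and 3 lower, 4 selectin ligand enzymes higher, and 4 cadherin linkage genes higher and 4 lower.

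The log2 fold change of NSD2 was -0.32 and past the threshold with no filter (adjusted p = 0.0173) and with the replicate block (0.0197). It ran from -0.50 to -0.12 when a library was left out, and at -0.50 it passed without control library 1 (0.0196) and without knockdown library 2 (0.0268). It was -0.03 with GC and length terms. Signs turned only in members near 0 or with few fragments. ITGA4 was at 0.06 with GC and length terms, with or without the replicate block, and at 0.03 without control library 2 or knockdown library 2. ITGAL was at -0.02 without control library 1, ITGA10 at 0.01 without knockdown library 2, while NCAM2 was at 0.55 when control library 2 was left out and at 0.08 when knockdown library 1 was. Across the fits that left out a library, ITGA4 ran from -0.04 to 0.03, ITGAL from -0.02 to 0.13, ITGA10 from -1.26 to 0.01 and NCAM2 from -0.79 to 0.55. The causes were not tested.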
